A study of Homo sapiens with 24 samples.

Results

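Replication-dependent histone genes encode the linker histone H1 and the core histones H2A, H2B, H3 and H4 that package newly made DNA. They are transcribed mainly during S phase from clusters of short genes without introns. Their transcripts usually end in a stem-loop bound by the stem-loop binding protein SLBP instead of a poly(A) tail, although some of these genes also give polyadenylated transcripts. The members were taken by name, as every gene whose symbol starts with HIST1H, HIST2H, HIST3H or HIST4H in the 4 comparison tables of the study. This gave 40 genes of 16742 listed in any table, of which 21 were listed in all 4. They comprised 2 genes of class H1, 10 of H2A, 13 of H2B, 8 of H3 and 7 of H4.

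The study compared the mRNA of 4 human cell lines that had gained chromosomes with the parental lines they came from, with 3 libraries of each of 8 lines and 24 in all. HCT116, a line from a colorectal carcinoma with a modal number of 45 chromosomes, was set against HCT116 5/4, which has 4 copies of chromosome 5. HCT116*, where the asterisk marks stable expression of histone H2B fused to GFP, was set against HCT116* 8/3 c7, clone 7 with 3 copies of chromosome 8. RPE1, retinal pigment epithelial cells immortalized with hTERT and with a modal number of 46, was set against RPE1 5/3 12/3, which has 3 copies of chromosomes 5 and 12. RPE1*, which also carries H2B-GFP, was set against RPE1* 21/3, which has 3 copies of chromosome 21. In both asterisked comparisons the fused histone was therefore present on both sides. The gained chromosomes were introduced by microcell transfer, except the extra copy of chromosome 12, which arose spontaneously, and each line is a single line or clone. The 3 libraries of a line are labelled as replicates without saying whether they came from separate cultures, so every p-value measures the spread between these libraries, which may be technical.

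The tables give 1 pooled mean per gene and comparison, the authors' mean of normalized counts over 6 libraries, with a log2 fold change and its standard error (SE) from DESeq2. Levels on the parental and aneuploid side could therefore be given only as implied by that mean and that fold, and levels of single libraries were not analysed here. The libraries were sequenced to a stated 25000000 single reads of 100 bases each. The HCT116 tables listed 6 of 8 markers of colon epithelium, without rows for VIL1 and CDX1. The RPE1 tables listed 8 of 9 markers of retinal pigment epithelium, without a row for TYRP1. The HCT116 tables also listed 6 of these 9, so being listed does not identify a cell type. By pooled mean, RPE65 was higher in the HCT116 tables, at 287 and 194 against 10.4 and 4.58 in the RPE1 tables. PMEL, KRT8 and KRT18 were also higher in the HCT116 tables, while MITF and BEST1 were higher in the RPE1 tables. RLBP1 and OTX2 were listed only in the RPE1 tables. The SE differed between tables. Among genes whose mean was 10 or more, the median SE was 0.14 for HCT116* 8/3 c7 and 0.21 to 0.25 for the other lines. The fold changes and SE of HCT116* 8/3 c7 were shrunk most, as described below. Its lower SE therefore does not show a smaller spread between libraries.

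On GRCh37, the assembly also known as hg19, 38 of the 40 members could be placed in GENCODE, 31 on chromosome 6 and 7 on chromosome 1. No placed member lay on a chromosome gained by any of the lines. HIST1H2BF and HIST1H2BG were not placed, and HIST2H2BC was annotated as a pseudogene.

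A stem-loop of 6 paired bases (G-T pairs allowed) around a loop of 4 was found within 150 bases after the stop codon in 36 of the 37 placed members with a coding sequence, HIST1H3E being the exception. The search asked for GG at its start, CC at its end and TT at the start of the loop, so a stem-loop with other letters would be missed. Only 7 different stem-loops occurred, and 22 members of 4 classes shared the same one. The sequences are shown for the genes on which the results turn and for HIST1H4C, the H4 gene with the highest level per length in 3 of the 4 tables, to show how the class of H4 differs. Capitals mark the stem-loop.
HIST1H1C: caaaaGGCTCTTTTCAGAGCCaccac
HIST2H2BE: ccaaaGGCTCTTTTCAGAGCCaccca
HIST1H2BJ: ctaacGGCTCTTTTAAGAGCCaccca
HIST1H2BK: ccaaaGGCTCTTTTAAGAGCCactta
HIST1H4C: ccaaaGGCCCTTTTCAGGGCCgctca
These lie at chr6:26055967-26055992 (minus strand), chr1:149857733-149857758 (minus), chr6:27100095-27100120 (minus), chr6:27114140-27114165 (minus) and chr6:26104540-26104565 (plus). The linker histone gene HIST1H1C and HIST2H2BE shared a stem-loop although they encode different classes. HIST1H2BJ, HIST1H2BK, HIST1H2BC and HIST1H2BD shared a form found in no other placed member. All 6 members with the form of HIST1H4C were H4 genes.

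The genes that encode one histone class are near copies of each other, which matters for counts because each read was given 1 place in the genome. In 26 of the 38 placed members no window of 100 bases of the main transcript recurred in another placed histone gene, and 7 members shared 50% or more of their windows. HIST1H4J and HIST1H4K shared 90.7% and 91.3% of theirs and HIST2H2BC 77.3%, so their values are uncertain. The share was 0% for HIST1H1C, HIST1H2BJ and HIST1H2BK, and 2.59% for HIST2H2BE. The start of the coding sequence is shown for the neighbours HIST1H2BJ and HIST1H2BK, the most alike of the H2B genes compared with HIST1H2BJ, whose levels are set side by side below. Capitals mark the 10 of 90 bases that differ.
HIST1H2BJ: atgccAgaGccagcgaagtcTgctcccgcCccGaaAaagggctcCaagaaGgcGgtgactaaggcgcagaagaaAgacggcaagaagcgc
HIST1H2BK: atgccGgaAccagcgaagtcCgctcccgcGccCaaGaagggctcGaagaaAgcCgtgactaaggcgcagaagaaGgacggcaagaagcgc
The stretches are chr6:27100440-27100529 and chr6:27114488-27114577, both on the minus strand. Over 378 coding bases without the stop codon they differed at 30 and were 92.1% identical, the highest identity of HIST1H2BJ with any of 9 other placed H2B genes with a coding sequence. The lowest was 86.0%, with HIST3H2BB. No window of 100 bases of the coding sequence of HIST1H2BJ was found in that of another of these genes.

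Promoters of H2A and H2B genes shared the octamer ATTTGCAT, searched on both strands in RefSeq promoters of 300 bases on GRCh38.p14. It was present in 9 of 12 H2B promoters and 7 of 10 H2A promoters matched by name, compared with 2.19% of 27305 promoters of all genes. It occurred in 1 of 7 H3 promoters and in none of 5 H4 and 2 H1 promoters, and these letters being absent says nothing about the factor that binds them. The H2A and H2B counts are not independent. Several H2A genes with the octamer are divergent partners of H2B genes with it. Examples are HIST1H2AG and HIST1H2BJ, 247 bases apart, and HIST2H2AC and HIST2H2BE, 235 bases apart. With promoters of 300 bases searched on both strands, 1 site can be counted for both partners. The TATA box TATAAA, which does not overlap the octamer in its letters, was present in 26 of 36 members' promoters and in 14.0% of all promoters. The octamer is shown in capitals for the H2B genes described below, because it lay at nearly the same distance from the start site in each.
HIST1H2BJ: ctcttcaccttATTTGCATaagcgattcta
HIST1H2BK: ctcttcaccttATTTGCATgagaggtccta
HIST2H2BE: tcggagccctaATTTGCATaaggtggttat
These windows are chr6:27132824-27132853, chr6:27146886-27146915 and chr1:149886710-149886739 on GRCh38.p14, all on the minus strand, and the octamer began 47, 46 and 46 bases before the annotated start site.

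Counts on the histone genes were low in every table. The HCT116 5/4 table listed 26 members, and 10 of them had a pooled mean under 10. In the HCT116* 8/3 c7 table this held for 17 of 35, in the RPE1 5/3 12/3 table for 12 of 29 and in the RPE1* 21/3 table for 12 of 24. Over all genes the share with a mean under 10 was between 8.32% and 11.2%. The median member had a mean of 11.3, 10.2, 11.4 and 10.3 normalized counts in the 4 tables, where the median gene of the same table had 414 to 486. These are counts and not levels per length, and histone transcripts are short. A mean of at least 100 was reached by 3 or 4 members per table. Across tables, 10 members had a mean of at least 10 in all 4 and 18 in none.

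**Figure D1:**
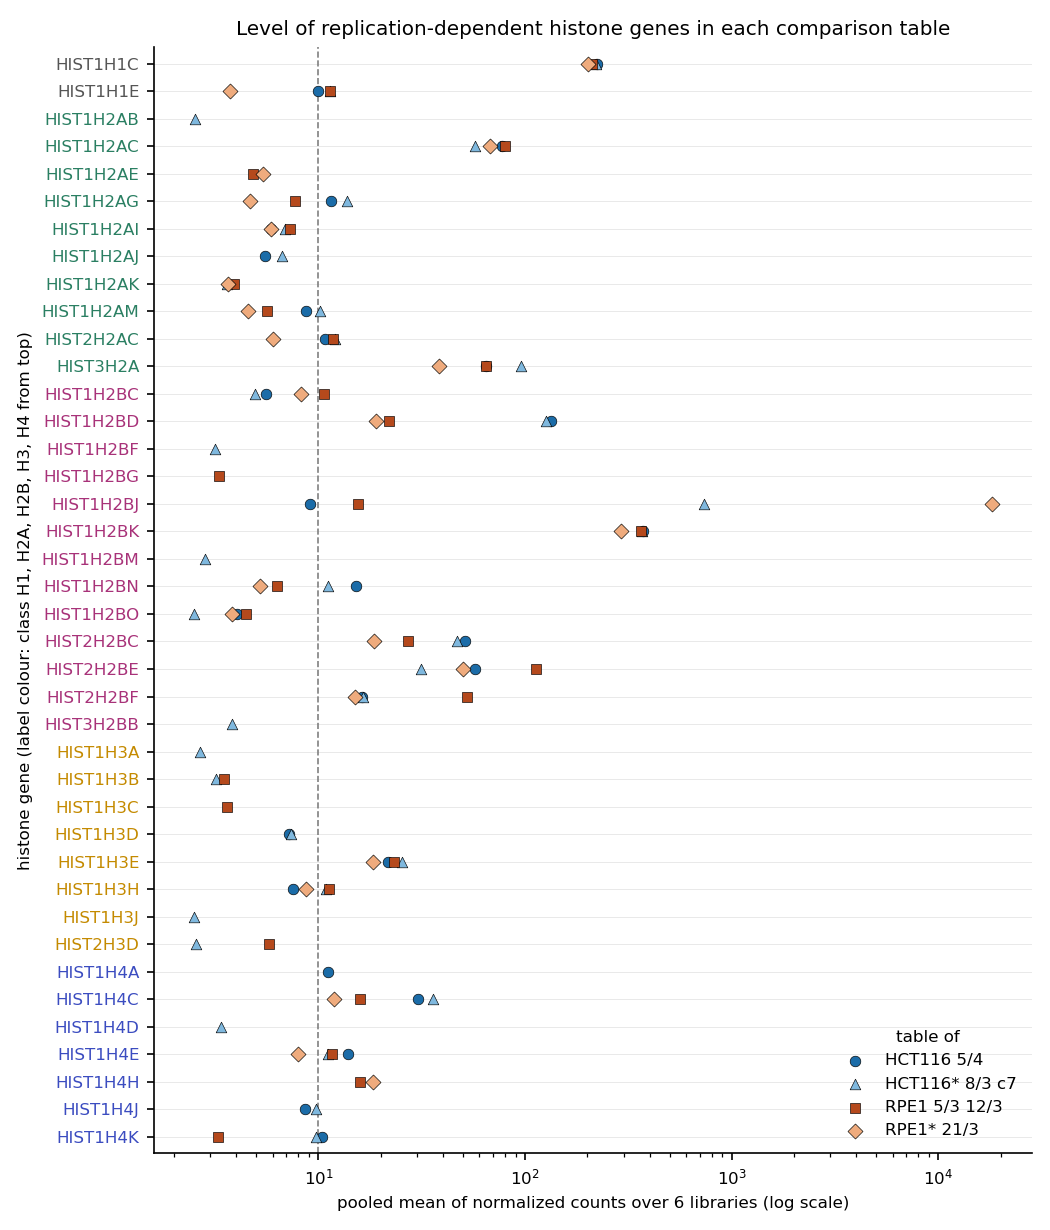
Pooled mean of normalized counts (log scale) of each of the 40 histone genes, 1 point per table that lists the gene. The dashed line marks a mean of 10. Most genes lie near or under it, while HIST1H2BJ spans from 9.10 in the HCT116 5/4 table to 18166 in the RPE1* 21/3 table.

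Per kilobase of the main transcript, HIST1H2BK, a gene for H2B, had the highest level among placed members in both tables without H2B-GFP, at 749 and 735 normalized counts per kilobase for HCT116 5/4 and RPE1 5/3 12/3. HIST1H1C, which encodes the linker histone H1.2, followed at 303 and 288. In class H2A the highest was HIST1H2AC at 149 and 153 in these tables, in H3 it was HIST1H3E at 45.2 and 48.1, and in H4 it was HIST1H4C at 75.3 and 39.2. In the tables with H2B-GFP, HIST1H3E stayed the highest H3 gene at 52.4 and 38.3. The highest H2A gene was HIST3H2A at 187 in HCT116* 8/3 c7 and HIST1H2AC at 130 in RPE1* 21/3. The highest H4 gene was HIST1H4C at 88.4 in the first and HIST1H4H at 44.9 in the second. Members with a transcript annotated more than 100 bases past the stem-loop reached a mean of 10 more often in every table, in 6 of 9, 8 of 10, 9 of 10 and 7 of 10 cases, against 8 of 15, 8 of 22, 6 of 16 and 3 of 12 for the other members with a stem-loop. A longer exon also gathers more reads, so this count alone does not show a higher level. Their median level per kilobase was above that of the other members with the length of the main transcript, at 28.1 against 22.1 in HCT116 5/4 and 42.0 against 13.4 in RPE1 5/3 12/3, but the main transcript mostly leaves out the extension. With the longest extension added to the length it was 15.4 against 22.1, 14.8 against 14.2, 20.3 against 13.4 and 18.2 against 11.1 in the tables of HCT116 5/4, of HCT116* 8/3 c7, of RPE1 5/3 12/3 and of RPE1* 21/3. The order in HCT116 5/4 thus turned with the length used, and no difference in level is read from it. HIST1H2BK and HIST1H1C had no such annotation and were nevertheless the highest members in the tables without H2B-GFP. These are descriptions, since the lengths come from GENCODE and the authors counted on RefSeq exons, and the sources used here do not say whether the libraries were selected for poly(A) tails.

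HIST1H2BJ was the member whose level differed most between tables. Its pooled mean was 9.10 normalized counts in the HCT116 5/4 table and 15.6 in the RPE1 5/3 12/3 table, neither of which involves H2B-GFP. In the tables whose lines carry H2B-GFP on both sides it was 734 for HCT116* 8/3 c7 and 18166 for RPE1* 21/3. Tables were normalized separately, so a ratio between them is a description without a test. The ratio was 80.6 in the HCT116 background and 1168 in the RPE1 background, and it ranked 2 among all genes in both, out of 14079 and 13365. By count, HIST1H2BJ ranked 110 of 14292 genes in the RPE1* 21/3 table and 12819 of 14510 in the RPE1 5/3 12/3 table.

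No other histone gene showed such a difference. Ratios of the 18 other members in the HCT116 background lay between 0.55 for HIST2H2BE and 1.48 for HIST3H2A with a median of 1.00, while the median of all genes was 1.05. In the RPE1 background the 16 others lay between 0.29 for HIST2H2BF and 1.15 for HIST1H4H with a median of 0.76, against 0.83 for all genes. The 6 other H2B genes reached at most 1.01 and 0.87. On the low side, HIST2H2BF, HIST1H1E, HIST2H2BE and HIST2H2AC lay under the 5th percentile of all genes, 0.56, in the RPE1 background. In the HCT116 background HIST2H2BE lay under that percentile, 0.57. HIST1H2AG, whose transcript starts 247 bases from that of HIST1H2BJ and runs the other way, had means of 11.5 and 13.8 in the HCT116 5/4 and HCT116* 8/3 c7 tables and 7.67 and 4.69 in the tables of RPE1 5/3 12/3 and of RPE1* 21/3. The high level was therefore seen at HIST1H2BJ and not at its divergent partner. HIST1H2BJ made up 38.3% of the summed mean of all members in the HCT116* 8/3 c7 table and 95.7% in the RPE1* 21/3 table. Without it the sum was 1181 in both HCT116 tables, 1105 in the RPE1 5/3 12/3 table and 819 in the RPE1* 21/3 table. Whether reads from the H2B-GFP transgene were counted on HIST1H2BJ was not tested.

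**Figure D2:**
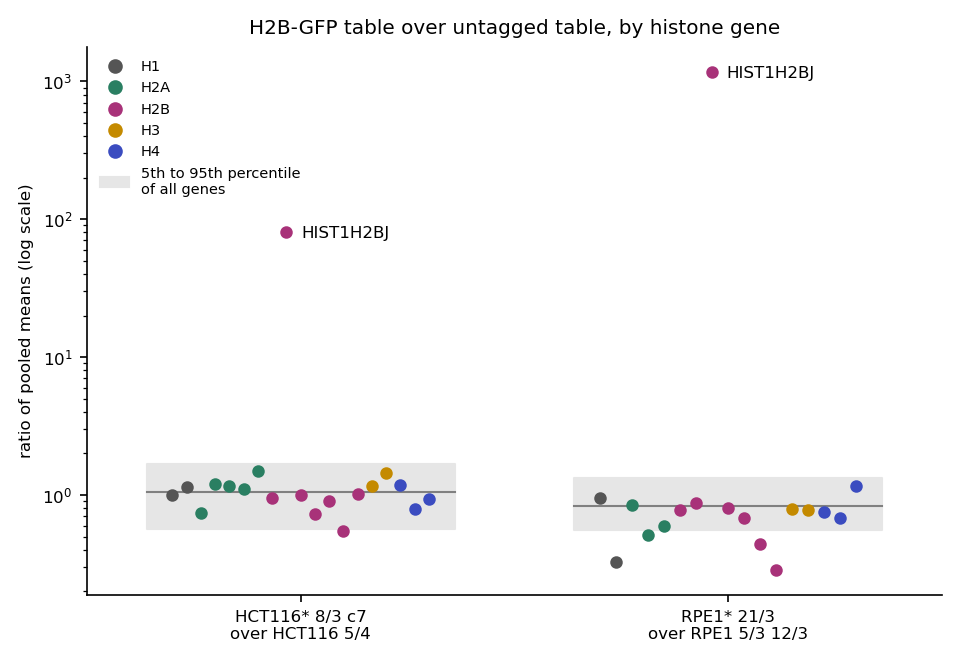
Ratio of pooled means (log scale) between the table with H2B-GFP and the table without it in each background, 1 point per histone gene listed in both. The grey band spans the 5th to 95th percentile of all genes and the line their median. HIST1H2BJ lies at 80.6 and 1168, and all other members lie at 1.48 or lower.

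The next comparison asked which histone genes changed when a line gained chromosomes. A gene was called when its mean was at least 10, its adjusted p-value under 0.05 and its log2 fold change above 0.6 or below -0.6. In HCT116 5/4, 2 of 16 members with sufficient mean were called, compared with 20.6% of 13887 genes. In HCT116* 8/3 c7 none of 18 was called by DESeq2 and 2 had an unadjusted p-value under 0.05, where the background was 1.80% of 13869 genes. In RPE1 5/3 12/3 none of 17 was called, again with 2 at an unadjusted p-value under 0.05, where the background was 16.6% of 13278 genes. In RPE1* 21/3, 2 of 12 members were called against 3.31% of 13101 genes, and 5 had an unadjusted p-value under 0.05. Without HIST1H2BJ, whose level in that line is described above, 1 of its members was called. The percentages are shares of genes called. The share of all genes with an unadjusted p-value under 0.05 was not computed, so the counts at that threshold have no background here.

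HIST1H1C was called in 2 of the 4 lines and was higher in both. In HCT116 5/4 its mean of 222 implied about 146 normalized counts in the parental and 298 in the aneuploid line. It rose there by 1.03 on the log2 scale (SE 0.28, DESeq2 adjusted p = 0.002). In RPE1* 21/3 its mean of 202 implied about 146 and 259, and it rose by 0.83 (SE 0.22, DESeq2 adjusted p = 0.0094). Its log2 fold change was -0.40 (SE 0.15, DESeq2 adjusted p = 0.21) in HCT116* 8/3 c7 at a mean of 220, and in RPE1 5/3 12/3 it was 0.03 (SE 0.21, DESeq2 adjusted p = 0.97) at a mean of 211. Its pooled means thus lay within 202 to 222 in all tables while its changes did not share a direction. The other H1 gene listed, HIST1H1E, had means of 3.74 to 11.4. It passed the filter in HCT116* 8/3 c7, at -0.21 (SE 0.14), and in RPE1 5/3 12/3, at 0.57 (SE 0.63).

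In HCT116 5/4 markers of cell type also changed. Of the 6 colon epithelium markers listed, 3 were called lower and 2 higher, and of 3 mesenchymal markers listed 2 were called higher and 1 lower. EPCAM, an epithelial adhesion molecule, fell by 2.57 and VIM, which encodes vimentin, rose by 2.74 on the log2 scale. Other called members of the same lists went the other way. KRT8 and KRT18 of the colon list rose by 1.25 and 1.57, and COL1A1 of the mesenchymal list was at -0.99. Of 5 retinal markers with sufficient mean in this line, which include KRT8 and KRT18 of the colon list, 3 were called higher and 2 lower. In RPE1 5/3 12/3 cell type markers changed as well, with 1 of 8 retinal markers called higher and 3 lower, and 1 of 3 mesenchymal markers lower. There RLBP1 rose by 3.35, RPE65 fell by 3.27 at a mean of 10.4 and COL1A1 fell by 3.18. No marker of the colon, retinal or mesenchymal lists was called by DESeq2 in HCT116* 8/3 c7 or RPE1* 21/3. The part of these changes in the values of the histone genes and of the lists below was not tested.

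Among H2B genes, HIST2H2BE rose in HCT116 5/4 by 0.95 (SE 0.33, DESeq2 adjusted p = 0.023), from an implied 39.0 to 75.0 normalized counts. In the other lines its log2 fold change was 0.07 (SE 0.18) for HCT116* 8/3 c7, -0.50 (SE 0.24) for RPE1 5/3 12/3 and 0.18 (SE 0.38) for RPE1* 21/3, none of which was called. Its main transcript is 2224 bases long in GENCODE, of which 1729 lie past the stem-loop. Its divergent partner HIST2H2AC, 235 bases away, had a log2 fold change of -0.44 (SE 0.57) in HCT116 5/4. The 95% intervals were -1.57 to 0.68 for HIST2H2AC and 0.30 to 1.59 for HIST2H2BE. Their overlap does not show that the partners changed alike, and the difference between them was not tested.

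HIST1H2BJ fell in RPE1* 21/3 by 0.70 on the log2 scale (SE 0.19, DESeq2 adjusted p = 0.0088), from an implied 22494 to 13838 normalized counts. In HCT116* 8/3 c7, the other line with H2B-GFP, its log2 fold change was -0.07 (SE 0.13, 95% interval -0.33 to 0.19). In RPE1 5/3 12/3 it was 0.58 (SE 0.51) at a mean of 15.6, and in HCT116 5/4 0.61 (SE 0.63) at a mean of 9.10, under the filter. The fall in RPE1* 21/3 was the only call, and the values without H2B-GFP rest on few counts.

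HIST1H2BK, the H2B gene with the highest level per length where H2B-GFP was absent, was not called in any line. Its log2 fold change was 0.24 (SE 0.22) in HCT116 5/4, -0.23 (SE 0.15) in HCT116* 8/3 c7, -0.44 (SE 0.19, DESeq2 adjusted p = 0.094) in RPE1 5/3 12/3 and 0.29 (SE 0.28) in RPE1* 21/3. HIST2H2BF and HIST1H2BD in RPE1* 21/3 had larger values, -1.18 (SE 0.45) and 1.03 (SE 0.45), at means of 15.01 and 19.01, with DESeq2 adjusted p-values of 0.17 and 0.33.

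No gene of H2A, H3 or H4 was called in any line by DESeq2. An unadjusted p-value under 0.05 occurred for HIST1H4C in HCT116* 8/3 c7, at -0.42 (SE 0.17), and for HIST1H2AC in RPE1* 21/3, at 0.66 (SE 0.27), among members with a mean of at least 10. Under that mean it also occurred for HIST1H4E in RPE1* 21/3, at -1.18 (SE 0.53) and a mean of 7.98. In HCT116 5/4 the 4 H2A genes with sufficient mean all had values below 0, with a median of -0.47, and HIST3H2A had the lowest at -0.77 (SE 0.40, DESeq2 adjusted p = 0.17). The 6 H2B genes of that line had a median of 0.31, and 4 lay above 0. The 4 H4 genes had a median of -0.21 and the 1 H3 gene, HIST1H3E, a value of -0.02 (SE 0.48). HIST1H4C had log2 fold changes of -0.23 (SE 0.79), -0.42 (SE 0.17), 0.81 (SE 0.64) and -0.51 (SE 0.56) in HCT116 5/4, in HCT116* 8/3 c7, in RPE1 5/3 12/3 and in RPE1* 21/3. HIST1H3E had values of -0.02, -0.18, 0.30 and 0.18 in the same order, with SE of 0.17 to 0.48, all within the spread between libraries. Medians of a class rest on 1 to 7 genes and were not tested.

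**Figure D3:**
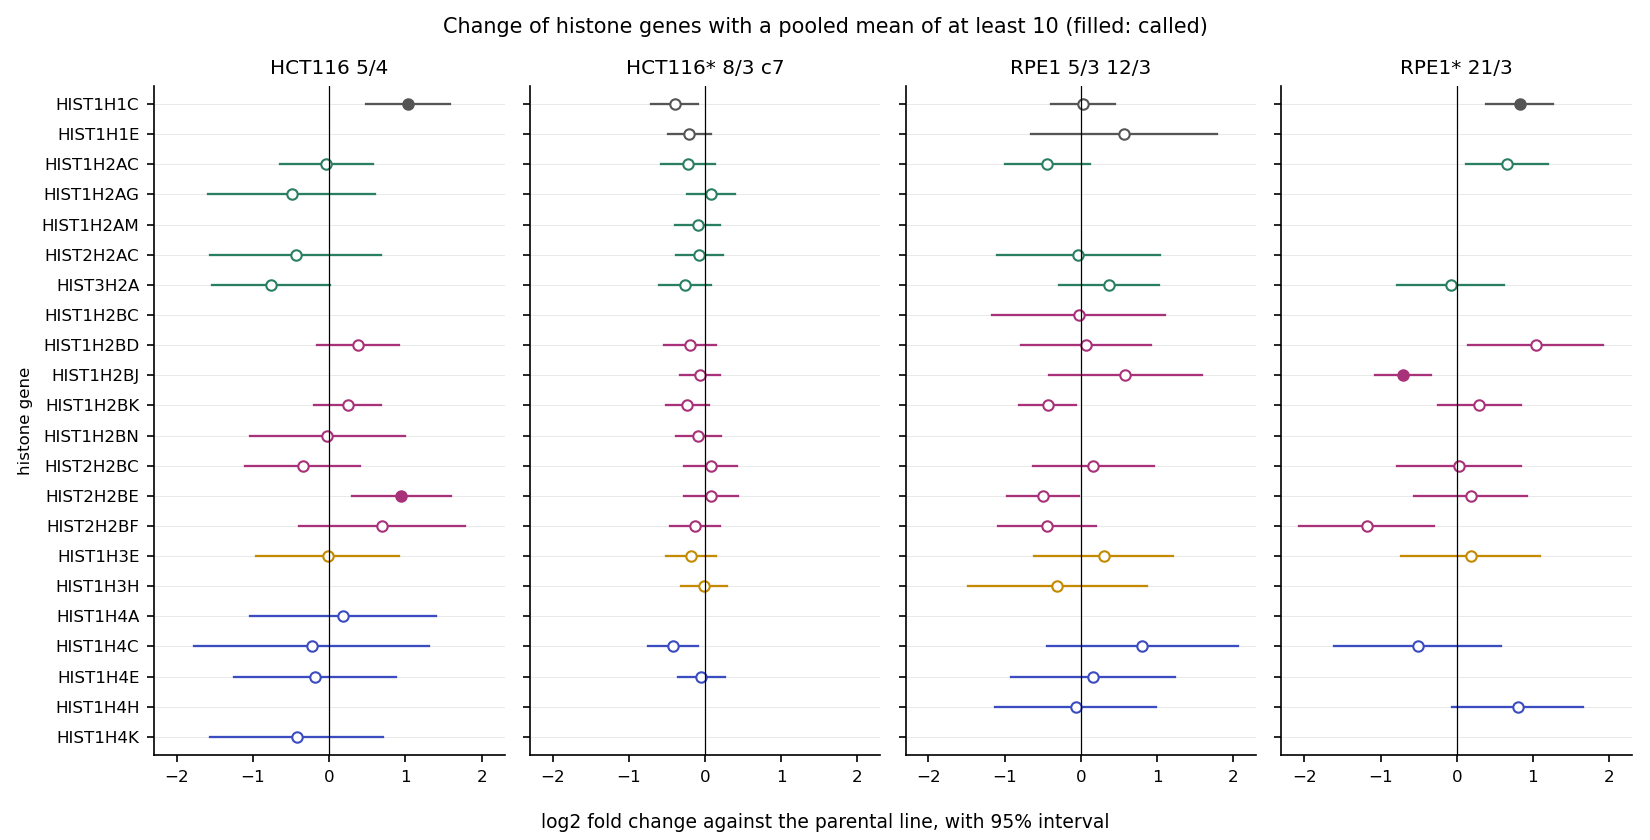
Log2 fold change of each histone gene with a pooled mean of at least 10 against its parental line, with the 95% interval, 1 panel per line. Filled points were called. HIST1H1C is filled at 1.03 in HCT116 5/4 and at 0.83 in RPE1* 21/3, HIST2H2BE at 0.95 in HCT116 5/4 and HIST1H2BJ at -0.70 in RPE1* 21/3. The short intervals of HCT116* 8/3 c7, whose fold changes were shrunk most, are no sign of precision.

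Over all classes, the median change of the members was small in every line. The median log2 fold change of the members was -0.03 in HCT116 5/4, -0.11 in HCT116* 8/3 c7, 0.03 in RPE1 5/3 12/3 and 0.18 in RPE1* 21/3, where all genes had medians between -0.00044 and 0.0061. Values below 0 were found for 10 of 16, 15 of 18, 8 of 17 and 4 of 12 members, compared with 48.2% to 50.03% of all genes. The 15 low values of HCT116* 8/3 c7 were small, and the lowest were -0.42 for HIST1H4C and -0.40 for HIST1H1C. Across the members with sufficient mean in a pair of lines, Pearson's r of the log2 fold changes lay between -0.55 and 0.16 over 10 to 15 genes, as a description, since genes are not independent and mostly sit on few counts.

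The precision of the members was limited by their counts. Their median SE was 0.50, 0.46 and 0.40 in HCT116 5/4, in RPE1 5/3 12/3 and in RPE1* 21/3, compared with 0.24, 0.21 and 0.25 for all genes. At these SE, the median member needed a log2 fold change of 1.28, 1.2 and 1.25 to reach an adjusted p-value under 0.05. The member with the smallest SE needed 0.58, 0.49 and 0.59. A change smaller than a member's own limit could not be called, which does not show that it is absent. In HCT116* 8/3 c7 the median SE of the members was 0.16 and the needed change 0.51. There the SE shows a ceiling of 0.18, the mark of a narrow prior that pulls fold changes of genes with few counts towards 0. Small values and small SE of genes with low means in that line are thus no sign of precision, and its fold sizes are not on the same footing as those of the other lines. The Wald statistic and its p-value are not altered by undoing such a prior.

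Next, the changes of the lines of the same background were compared with each other by a test of the difference, since no library is shared between their tables. HIST1H1C differed between HCT116 5/4 and HCT116* 8/3 c7 by 1.43 on the log2 scale (SE 0.32, 95% interval 0.80 to 2.06, Wald test adjusted p = 0.000115 over 13570 genes). It was the only member called of 14 tested, where 18.9% of all genes were called. Since the fold changes and SE of HCT116* 8/3 c7 were shrunk more, this difference and its SE depend on the prior. With the prior undone in both tables the difference of HIST1H1C was 1.59 (SE 0.35, Wald test adjusted p = 0.000113). HIST2H2BE differed by 0.87 (SE 0.38), which did not pass the adjustment (Wald test adjusted p = 0.091, and 0.26 with the prior undone). Its mean in HCT116* 8/3 c7 was 31.2, with an SE of 0.18 at the ceiling. The prior is probably not undone rightly for such a gene, so the 0.26 is uncertain. The other 12 differences lay between -0.57 and 0.82. In the RPE1 background none of 12 members was called by the Wald test, where 9.32% of 12923 genes were. That share does not apply to the unadjusted p-value, which was under 0.05 for 4 members. These were HIST1H2AC with a difference of -1.10 (SE 0.39, Wald test adjusted p = 0.054), HIST1H1C with -0.80 (SE 0.31, adjusted p = 0.085), HIST1H2BJ with 1.28 (SE 0.54, adjusted p = 0.13) and HIST1H2BK with -0.73 (SE 0.34, adjusted p = 0.19). The 95% interval for HIST1H1C was -1.41 to -0.20 and for HIST1H2AC -1.87 to -0.33, so a difference of either size is not shown to be absent. The lines of a pair differ in the gained chromosome, in H2B-GFP and in their clonal origin, which cannot be told apart.

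**Figure D4:**
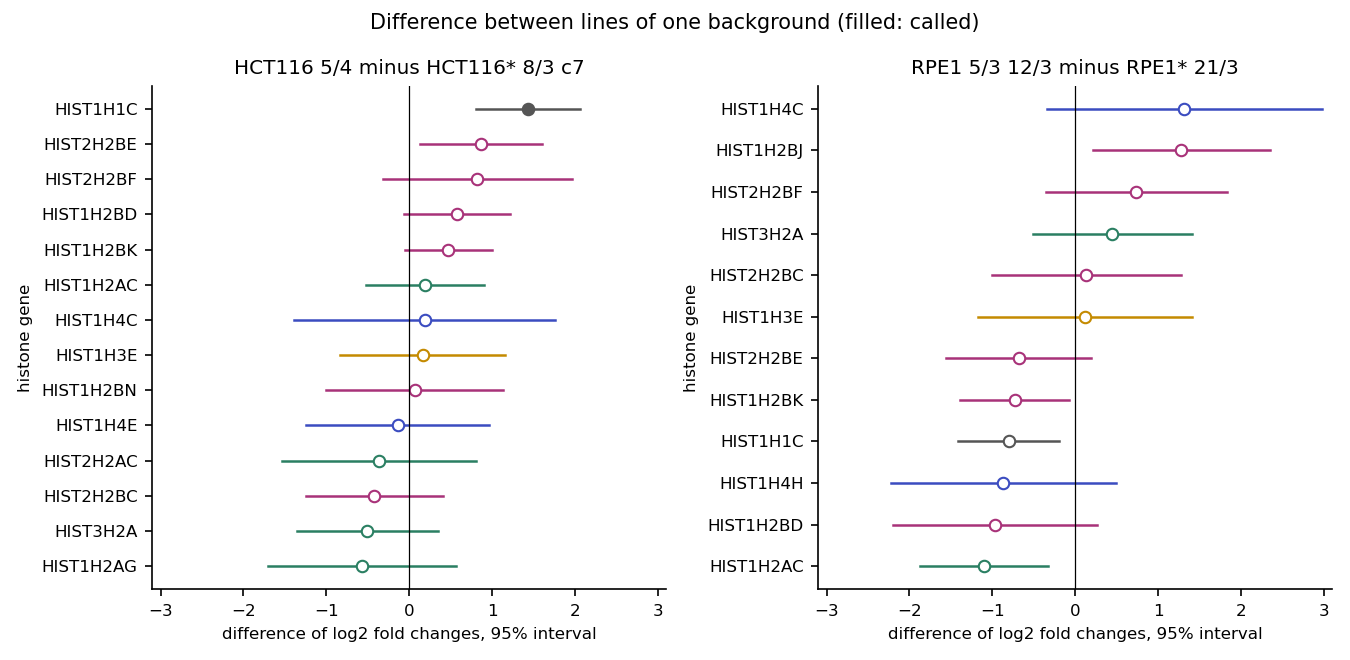
Difference of the log2 fold changes of each histone gene between the lines of the HCT116 background (left, 14 genes) and of the RPE1 background (right, 12 genes), with 95% intervals. Only HIST1H1C at 1.43 on the left is filled, which marks an adjusted p-value under 0.05. The widest intervals belong to HIST1H4C.

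Genes that work with these histones were examined as lists. Of 11 listed genes for replication-independent histones, which are made throughout the cell cycle, 1 was called in HCT116 5/4, where 20.6% of all genes were, and 2 in RPE1 5/3 12/3, where 16.6% were. These and the following counts lie near or below the share of all genes, so they are no result about the lists, and the genes are named as single values. H2AFY2, a gene for macroH2A, fell by 0.75 (SE 0.20) in HCT116 5/4 and by 1.05 (SE 0.21) in RPE1 5/3 12/3. H2AFY, the other gene for macroH2A, rose by 0.61 (SE 0.19) in RPE1 5/3 12/3, and it lies on chromosome 5, which this line has gained. In HCT116 5/4, which has 4 copies of that chromosome, H2AFY was at -0.16 (SE 0.19) and was not called. The part of copy number in these values was not tested. None of these 11 genes was called by DESeq2 in HCT116* 8/3 c7 or RPE1* 21/3. The median log2 fold change of the list was -0.08, 0.01, 0.19 and 0.16 in HCT116 5/4, in HCT116* 8/3 c7, in RPE1 5/3 12/3 and in RPE1* 21/3.

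Of 38 listed genes for transcription, 3′ end processing and turnover of histone mRNA, 1 was called higher in HCT116 5/4, 1 higher in HCT116* 8/3 c7, and 1 higher and 1 lower in RPE1 5/3 12/3, against 20.6%, 1.80% and 16.6% of all genes called in these lines. E2F1, a transcription factor of the G1 to S transition, rose by 0.89 (SE 0.26) in HCT116 5/4. ERI1, an exonuclease that trims and degrades histone mRNA at the stem-loop, rose by 1.05 (SE 0.13, DESeq2 adjusted p = 6.31e-13) in HCT116* 8/3 c7. ERI1 lies on chromosome 8, of which this line has 3 copies, and its part in the members' values there was not tested. The log2 fold change of ERI1 was -0.59 (SE 0.22, DESeq2 adjusted p = 0.040) in HCT116 5/4. It was 0.46 (SE 0.17, DESeq2 adjusted p = 0.043) in RPE1 5/3 12/3 and 0.20 (SE 0.20) in RPE1* 21/3. None of these was called, in HCT116 5/4 and RPE1 5/3 12/3 only because of the fold threshold. HINFP, a factor that activates H4 genes, rose by 0.62 (SE 0.19) in RPE1 5/3 12/3, where HIST1H4C, HIST1H4E and HIST1H4H had values of 0.81 (SE 0.64), 0.16 (SE 0.55) and -0.07 (SE 0.54). CCNE1, a gene for cyclin E that acts on histone transcription through NPAT, fell by 1.17 (SE 0.30) in the same line. SLBP was not called in any line and had log2 fold changes between -0.07 and 0.09.

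Of 21 histone chaperone genes, NAP1L1, which binds H2A and H2B, was the only one called, in lines where 20.6% and 16.6% of all genes were. It fell by 0.69 (SE 0.22) in HCT116 5/4 and rose by 0.84 (SE 0.17) in RPE1 5/3 12/3, and it lies on chromosome 12, which the latter line has gained. Of 20 S phase genes, CDC6, which licenses replication origins, was the only one called, and it rose by 0.69 (SE 0.23) in HCT116 5/4, where 20.6% of all genes were called. The median log2 fold change of the S phase list was 0.12 in HCT116 5/4 and between -0.06 and 0.04 in the other lines.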

How the data were processed

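Libraries were made from total RNA with the TruSeq RNA kit. Per the labels and the study's methods, the authors trimmed reads with cutadapt, mapped them to hg19 with TopHat2 2.0.10 keeping 1 location per read, counted them on RefSeq exons with featureCounts 1.4.3 and tested each aneuploid against its parental line by DESeq2 (version not given in the sources used here). The deposited tables hold only the authors' comparisons: a mean normalized count signal over both groups, a log2 fold change with its SE, a Wald score and p-values with Benjamini-Hochberg adjustment over the table. These deposited values were used here as such, because no values of single libraries were used. The tables do not show the depth of a library, which is therefore unknown, and the SE stands for precision.

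Computed here were the calls, the 95% intervals, the implied means, ratios of means, the Wald test of differences between lines and the sequence features. Python 3.11.15, pandas 2.3.3 and scipy 1.17.1 were used. The Wald test was two-sided and adjusted over every gene whose mean reached 10 in both tables. It was tried on simulated fold changes without shrinkage, so that trial could not show the effect of unequal priors. Older symbols were matched to current ones through RefSeq synonyms, and locations come from GENCODE on GRCh37. Members, lists and tests were chosen with earlier results of these data known. Named were every called or differing member, the highest member of each class in each table, and every called gene of the other lists. Other genes are named for values seen, such as partners of named genes and those with an unadjusted p-value under 0.05. Alternatives were other filters, thresholds, adjustment, centring and the prior undone.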

Additional observations from a re-analysis of the deposited data

Results flagged for a closer look

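The change of HIST1H1C differed between the lines of the HCT116 background by 1.43 on the log2 scale (SE 0.32), with a log2 fold change of 1.03 in HCT116 5/4 and of -0.40 in HCT116* 8/3 c7, as found by the test of the difference itself. The fold changes of HCT116* 8/3 c7 were shrunk more than those of HCT116 5/4, and with the prior undone in both tables the difference was 1.59. No other member was picked out, and single libraries could not be searched for outlying values.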

How the results depend on the processing

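The count of called members in HCT116 5/4 was 1 in place of 2 with a pooled mean of at least 100 and with an absolute log2 fold change above 1. In RPE1* 21/3 it was 0 in place of 2 with an absolute log2 fold change above 1, 5 with an unadjusted p-value under 0.05, and 1 without HIST1H2BJ, an alternative added after seeing the data. In the test of differences, an unadjusted p-value under 0.05 gave 2 members in place of 1 for the HCT116 background and 4 in place of 0 for the RPE1 background. In those alternatives the cause is the changed threshold or the gene left out. The call lost in HCT116 5/4 under both settings was that of HIST2H2BE, and those lost in RPE1* 21/3 with an absolute log2 fold change above 1 were HIST1H1C and HIST1H2BJ. The counts of the other lines stayed at 0 in each alternative run. With no filter on the mean, p adjusted again, centring on the median gene or the prior undone, the calls of HIST1H1C, HIST2H2BE and HIST1H2BJ stayed on their side of the threshold in each line. Most of these settings could hardly have changed them. Dropping the filter cannot remove a call, and undoing the prior kept the adjusted p-value and enlarged the fold change. Centring subtracted only medians between -0.00044 and 0.0061. Medians of the members moved by less than the median SE of the members under every alternative. That SE belongs to single genes and is a wide limit for a median, so this does not show the medians to be stable. The medians moved furthest with a mean of at least 100, which left 3 or 4 genes. There the median changed sign, from -0.03 to 0.38 in HCT116 5/4 and from 0.03 to -0.44 in RPE1 5/3 12/3. The prior could be undone well only where the SE ceiling was sharp, in HCT116* 8/3 c7 and RPE1* 21/3, and for genes of HCT116* 8/3 c7 with a mean under about 43 the solution used is probably not the right one. No paired analysis was possible because the tables hold no values of single libraries, and for the same reason no replicate could be left out.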
